A study of Gossypium barbadense with 48 samples.

Results

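PimaS-7 and 5917 are 2 cultivars of Gossypium barbadense (sea-island or Pima cotton), and their fibers were compared at 10 days post anthesis (DPA). The comparison holds 6 of the 48 RNA libraries of the study, 3 of PimaS-7 and 3 of 5917, taken by the cultivar and the day in the labels. PimaS-7 is an American cultivar and 5917 a Chinese cultivar, neither carries a transgene or a treatment, and both are parents of a recombinant inbred population in which fiber strength was mapped. The other libraries cover the same cultivars at 0 DPA (ovules) and at 5, 15, 20, 25, 30 and 35 DPA (fibers). The methods name 3 biological replicates and do not say that each came from a separate plant, so the p-values measure the spread between these samples, which may be in part technical.

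A cotton fiber is a single cell of the seed coat that elongates for weeks without dividing. During elongation, turgor stretches a thin primary wall of cellulose, xyloglucan and pectin, cortical microtubules set the direction in which cellulose is laid down, actin carries vesicles to the growing surface, and sucrose, potassium and proton pumps keep up the turgor. Later the cell turns to a thick secondary wall of nearly pure cellulose, on which fiber strength depends. Fibers of 10 DPA lie in the elongation phase.

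Total counts were 33849658 to 43390702 in the PimaS-7 libraries and 32373389 to 35788848 in the 5917 libraries. A level is given here as CPM, read counts scaled to library size with TMM factors (an edgeR scaling that assumes most genes do not differ), and FPKM is the authors' own value, which is also scaled by gene length. Between 41278 and 43331 genes had an FPKM above 0.5 in a PimaS-7 library, against 37128 to 40149 in a 5917 library. Replicates resembled each other more than the other cultivar, since Pearson's r across 58894 genes on log2(FPKM + 1) was 0.9769 to 0.9781 within PimaS-7, 0.9766 to 0.9816 within 5917 and 0.9442 to 0.965 between cultivars. Genes are not independent replicates, so these r values are a description. The first principal component held 55.2% of the variance and put the 3 PimaS-7 libraries on the opposite side from the 3 libraries of 5917.

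The fiber label was checked against marker genes. Of the 12 elongating fiber markers found in the files, 8 stayed under 1 FPKM and 2 were at 0, so the check rests on a few genes. PIP1-2, an aquaporin of the plasma membrane, averaged 744 FPKM in PimaS-7 and 617 FPKM in 5917, and HTH (HOTHEAD), which Arabidopsis needs for its cuticle, averaged 80.6 FPKM in PimaS-7 and 109 FPKM in 5917. Secondary wall markers summed to 7.64 to 11.9 FPKM in PimaS-7 and 6.68 to 9.91 FPKM in 5917, with 5 of 6 under 1 FPKM and MYB46 and LAC3 at 0. Among the 8 stages this sum, most of it KNAT7, ranked as the lowest in PimaS-7 and next to the lowest in 5917. Markers of dividing cells and ovules summed to 35.3 to 40.4 FPKM in PimaS-7 and 17.9 to 38.5 FPKM in 5917, and none of the 10 was called by edgeR or DESeq2 (2 at an unadjusted p of at most 0.05). Photosynthesis genes summed to 28.4 to 33.5 FPKM in PimaS-7 and 37.3 to 40 FPKM in 5917, most of it LIL3.2. Seed and embryo genes summed to 10.2 to 13.2 FPKM in PimaS-7 and 12 to 12.5 FPKM in 5917. Counted from the highest of the 8 stages, the elongating fiber sum ranked 2 in PimaS-7 and 3 in 5917. The photosynthesis sum ranked 1 in PimaS-7 and 2 in 5917, that of dividing cells and ovules 3 in both, and that of seed and embryo 4 in both. The part of other cells in the differences below was not tested, and in bulk tissue fewer cells of a type and less RNA per cell cannot be told apart.

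The question of the comparison is which genes differ between the parents while their fibers elongate. Of 47847 genes with enough counts to test, 1478 were called higher in PimaS-7 (3.09%) and 954 lower (1.99%), where a call needs an adjusted p of at most 0.05 by edgeR's quasi-likelihood test and a log2 fold change of at least 1 in size. That is 2432 genes or 5.08% of those tested, and 60.8% of the calls were higher. The median log2 fold change was 1.57 among the higher calls and -1.69 among the lower calls, with 498 genes at 2 log2 units or more above and 401 at 2 or more below. At any fold, 2426 genes passed an adjusted p of 0.05 with the higher level in PimaS-7 (5.07%) and 3630 with the lower level (7.59%), and 31.2% of genes had an unadjusted p of at most 0.05. Genes called higher had a median of 2.92 CPM, those called lower 4.69 CPM, and all tested genes 5.65 CPM. The split depends on the scaling. With total counts in place of TMM, an alternative chosen after the data were seen, the median of all genes moved to 0.3 log2 units, compared with 0.07 under TMM, and the calls became 2600 higher and 648 lower, or 80% higher. It also rests on single libraries, since without PimaS-7 replicate 1 there were 503 higher and 671 lower calls, and without PimaS-7 replicate 3 there were 633 higher and 719 lower. Higher calls also dropped to 818 without 5917 replicate 2 and to 774 without 5917 replicate 3.

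**Figure D1:**
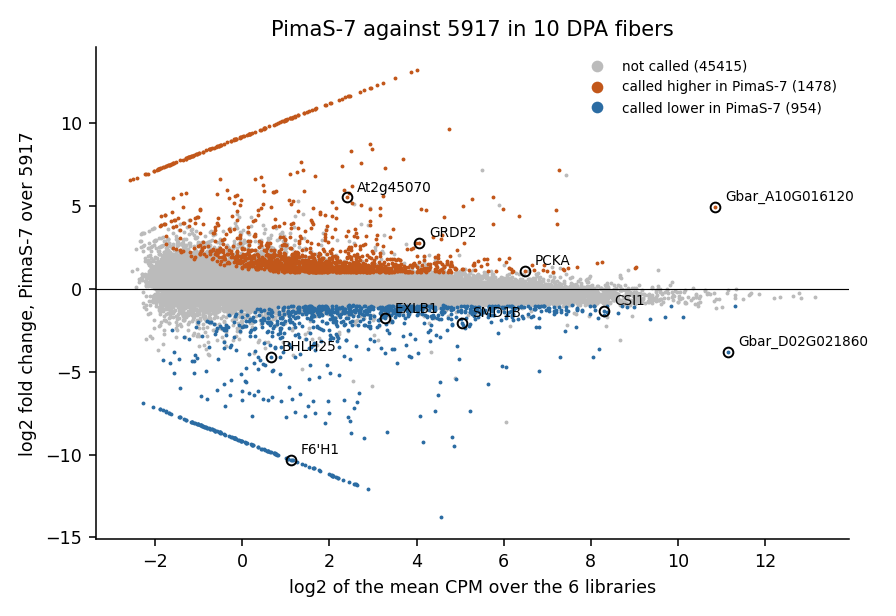
Each point is 1 of the 47847 tested genes, with the log2 of its mean CPM over the 6 libraries on the x axis and its log2 fold change, PimaS-7 over 5917, on the y axis. The 1478 genes called higher and the 954 called lower spread over all levels, and the straight lines of points at the upper and lower edge are genes with 0 counts in the 3 libraries of 1 cultivar, whose fitted value depends on the prior count.

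Gene names come from matches in other species and are held for genes in the 3 mapped fiber strength intervals, on chromosomes D03, D08 and D11 of the HAU v2.0 build. Of 1132 tested genes with a name, 42 were called (3.71%), 24 higher and 18 lower. Names below are those matches, and lists of genes by function hold only named genes of these intervals, not whole families. Of 289 list members tested, 13 were called.

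In cellulose synthesis, CSI1 and CSLD3 were lower in PimaS-7. CSI1 (Gbar_D11G023660, D11 37084984 to 37095988) encodes CELLULOSE SYNTHASE INTERACTIVE 1, which in Arabidopsis ties the cellulose synthase complex to cortical microtubules. It had 152, 206 and 178 CPM in PimaS-7, against 428, 466 and 476 CPM in 5917. No PimaS-7 library reached the lowest library of 5917, and 38.4% of all tested genes likewise had no overlap between the cultivars in either direction, as did 2429 of the 2432 calls. CSI1 was lower in PimaS-7 by a log2 fold change of -1.35 ± 0.14 (SE, n = 3 each, adjusted p = 0.0016), and it kept this call without each library in turn. The neighbor in function CESA3 (Gbar_D08G016600), a catalytic subunit of the primary wall cellulose synthase, had 196, 257 and 222 CPM in PimaS-7, against 361, 357 and 426 CPM in 5917. Its groups did not overlap either, yet its log2 fold change of -0.76 (adjusted p = 0.015) stayed under the fold needed for a call.

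CSLD3 (Gbar_D08G024730), a cellulose synthase-like protein that Arabidopsis root hairs need for tip growth, had 4.61, 4.05 and 3.02 CPM in PimaS-7, against 6.15, 9.28 and 9.38 CPM in 5917. The call of -1.09 ± 0.23 log2 units (SE, adjusted p = 0.026) is close to both thresholds and was lost without most single libraries. CSLE6 (Gbar_D11G025800) had a log2 fold change of -0.97 (adjusted p = 0.03), while another CSLE6 copy (Gbar_D11G025810) had 1.88 ± 0.76 (SE, adjusted p = 0.14). CESA6 (Gbar_D11G023860) stood at 22.7, 22.2 and 22.2 CPM in PimaS-7, against 38.4, 25.9 and 28.3 CPM in 5917, with an adjusted p of 0.086. Enzymes that supply UDP-glucose did not pass the test. SUS2, a sucrose synthase, had overlapping values of 8.91 to 16.3 CPM in PimaS-7 and 5.3 to 14.5 CPM in 5917. In the whole list of cellulose synthesis and sugar supply, 2 of 18 tested genes were called by edgeR, both lower, and 4 passed the adjusted p, all lower, while DESeq2 also called a CSLE6 gene lower. The median of the list was 0.23 log2 units beside 0.07 over all genes, and 11 of the 18 had a positive log2 fold change, so the list as a whole did not share the lower level of CSI1.

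Genes of wall loosening and of pectin moved singly. EXLB1 (Gbar_D08G018530, D08 54073174 to 54074592), a member of the expansin-like B group related to wall-loosening expansins, had 4.85, 3.51 and 4.78 CPM in PimaS-7, against 10.1, 16.4 and 18.8 CPM in 5917. The groups were wide apart, with a log2 fold change of -1.78 ± 0.25 (SE, adjusted p = 0.0066), and the call held without each library. It was the only call by edgeR among 4 tested genes of the wall loosening list, and DESeq2 also called EXPA15 higher, a gene that did not pass the count filter of the edgeR test. The expansin EXPA17 had 1.35, 1.26 and 1.21 CPM in PimaS-7, against 1.19, 0.406 and 0.0964 CPM in 5917, and did not pass (adjusted p = 0.3). PAE7 (Gbar_D08G016940), an esterase that takes acetyl groups off pectin, went the other way, with 26, 20.2 and 23.4 CPM in PimaS-7, against 13.3, 10 and 9.38 CPM in 5917. PAE7 was higher in PimaS-7 by 1.09 ± 0.17 log2 units (SE, adjusted p = 0.0087), and its fold dropped just under the limit without 5917 replicate 3. It was the only call among 11 tested pectin genes. None of 8 tested genes of the secondary wall list was called by edgeR, 2 had an unadjusted p of at most 0.05, and DESeq2 called 4CLL6 alone.

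Cytoskeleton genes showed smaller shifts, with no call among 19 microtubule genes and 12 actin genes by edgeR or DESeq2. An unadjusted p of at most 0.05 was reached by 6 and 5 of them. Adjusted p passed for 3 microtubule genes, all lower, and for 5 actin genes, 4 of them lower. TUBB5 (Gbar_D11G033670), a beta tubulin, had 174, 199 and 177 CPM in PimaS-7, against 266, 279 and 361 CPM in 5917. The 3 libraries of 5917 all lay above PimaS-7, and the log2 fold change was -0.72 ± 0.14 (SE, adjusted p = 0.02). KIN14A, a kinesin-like protein, had a log2 fold change of -0.54 (adjusted p = 0.025). ACT7 (Gbar_D11G024280), an actin of growing tissues, had 509, 605 and 560 CPM in PimaS-7, against 750, 831 and 879 CPM in 5917, again with no overlap and a log2 fold change of -0.55 (adjusted p = 0.027). The alpha subunit of the F-actin-capping protein (Gbar_D11G029020), which blocks the fast-growing end of actin filaments, had 52.6, 67.3 and 57 CPM in PimaS-7, against 78.5, 95.5 and 112 CPM in 5917. Its log2 fold change was -0.69 ± 0.16 (SE, adjusted p = 0.03). NET1D, which links actin to membranes, had -0.77 (adjusted p = 0.013), and the myosins XI-2 and XI-E went apart, with -0.5 (adjusted p = 0.032) and 0.48 (adjusted p = 0.042). The medians of both lists, -0.01 and -0.09 log2 units, were near that of all genes, which was not matched for level. Of all tested genes, 7.59% passed the adjusted p at any fold with the lower level in PimaS-7.

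The remaining candidates of the study are genes of the microtubule list. TUBB1 (Gbar_D08G020540), another beta tubulin, had 9.44, 1.28 and 6.89 CPM in PimaS-7, against 20.2, 12.8 and 18.7 CPM in 5917. PimaS-7 replicate 2 was far below its other replicates, and the log2 fold change of -1.54 ± 0.57 (SE) did not pass (adjusted p = 0.12). WDL2 (Gbar_D11G032910), a microtubule-bundling protein of the WVD2 family, had 5.69, 3.6 and 6.15 CPM in PimaS-7, against 4.74, 3.34 and 1.41 CPM in 5917. SP1L2 (Gbar_D08G013370), of the SPIRAL1 family that keeps growth straight in Arabidopsis, had 15, 17.8 and 28.5 CPM in PimaS-7, against 18.4, 15.5 and 16.5 CPM in 5917. Both overlapped between the cultivars, with log2 fold changes of 0.7 ± 0.41 (SE, adjusted p = 0.28) and 0.28 ± 0.23 (SE, adjusted p = 0.44). The value of SP1L2 rested on PimaS-7 replicate 3, without which it was -0.04. With all 48 libraries scaled together, as for every mean across stages here, SP1L2 was far from its later level, since it averaged 20 CPM in PimaS-7 and 16.7 CPM in 5917 at 10 DPA, and 782 CPM in PimaS-7 and 925 CPM in 5917 at 35 DPA.

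Single genes of turgor and of the surface were lower too. The vacuolar pyrophosphatase (Gbar_D08G022900), which pumps protons into the vacuole, had 282, 339 and 305 CPM in PimaS-7, against 488, 509 and 614 CPM in 5917. The log2 fold change was -0.8 (adjusted p = 0.012), and it was the only 1 of 13 tested pump, aquaporin and potassium genes to pass the adjusted p, with none called by edgeR or DESeq2 and 6 at an unadjusted p of at most 0.05. In the cuticle and fatty acid list, HTH, CER26L and ACBP4 passed with lower levels in PimaS-7, at -0.69, -0.79 and -0.5 log2 units (adjusted p = 0.031, 0.031 and 0.036). CER26L belongs to the family that extends wax precursors. A chloroplast glycerol-3-phosphate acyltransferase (Gbar_D08G017560), which starts membrane lipid synthesis in plastids, was the only call of that list and was higher in PimaS-7, with 6.1, 4.71 and 5.45 CPM in PimaS-7, against 3.43, 2.59 and 1.77 CPM in 5917. Its call (1.06 ± 0.26, SE, adjusted p = 0.039) was lost without most single libraries. The median of the 14 tested genes was -0.32 log2 units. No member of the lists for sugar transport (12 tested), arabinogalactan and fasciclin proteins (4 tested) or cytosolic ribosomal proteins (14 tested) passed the adjusted p in edgeR, and 3, 0 and 2 of them had an unadjusted p of at most 0.05. DESeq2 called the sugar transporter STP14 among them.

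**Figure D2:**
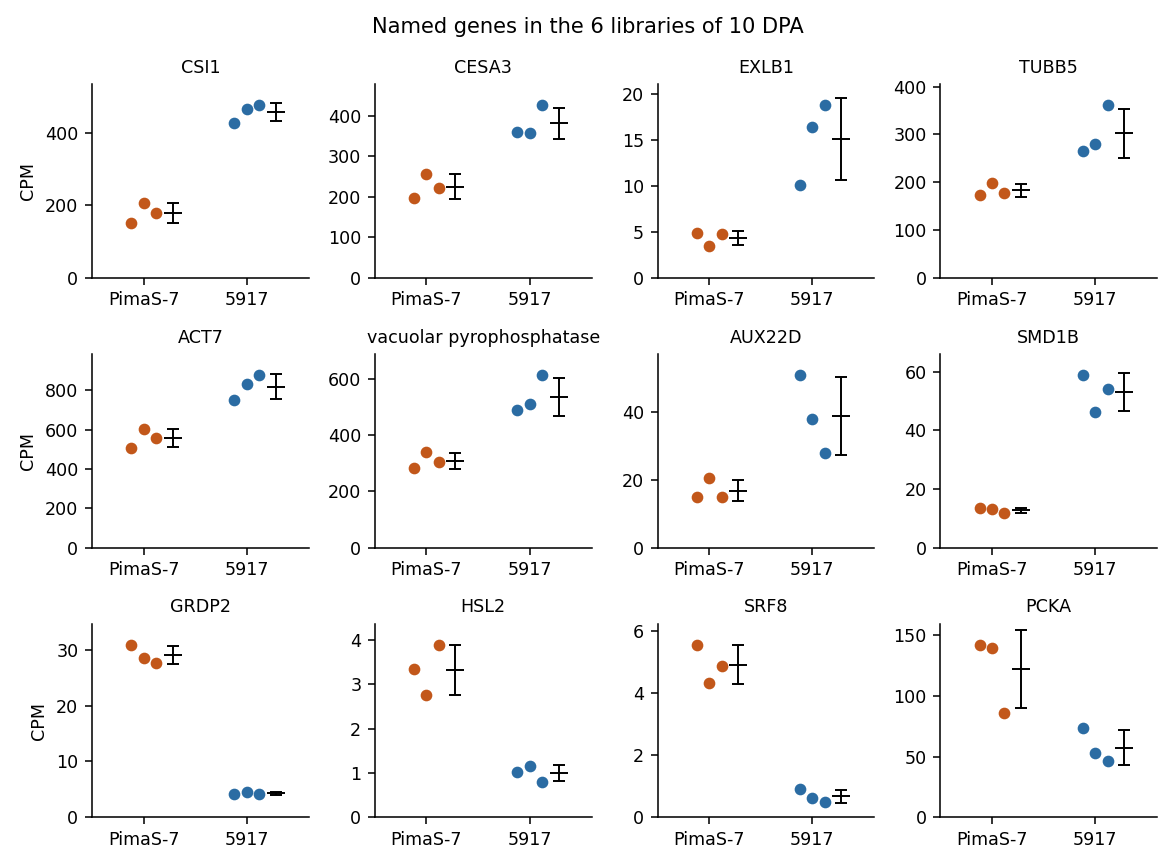
Each panel is a gene, with CPM on the y axis from 0, the 3 libraries of PimaS-7 as points on the left, the 3 of 5917 on the right, and the mean with SD beside each group. In the first 8 panels every PimaS-7 library is below every library of 5917 (CSI1 at 152 to 206 CPM against 428 to 476 CPM), and in the last 4 every PimaS-7 library is above (GRDP2 at 27.7 to 30.9 CPM against 4.08 to 4.59 CPM).

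Hormone genes had 2 calls. AUX22D (Gbar_D11G027260), a member of the Aux/IAA family of auxin response repressors, had 15.1, 20.5 and 15 CPM in PimaS-7, against 51.1, 38 and 28.1 CPM in 5917. It was lower in PimaS-7 by -1.21 ± 0.23 log2 units (SE, adjusted p = 0.018), with 1 call in 13 tested auxin genes, and the call held in 2 of 6 fits without a library. At 25 and 35 DPA the same gene was called in the opposite direction. IAA9 of the same family lies in the D03 interval and had 18, 18.8 and 17.6 CPM in PimaS-7, against 14.4, 13.4 and 11.6 CPM in 5917 (0.46 log2 units, adjusted p = 0.044). CYP707A1, the enzyme that breaks down abscisic acid, had 5.12, 2.8 and 1.65 CPM in PimaS-7, against 1.03, 1.16 and 0.964 CPM in 5917. That call (1.6 ± 0.43, SE, adjusted p = 0.048) held in only 1 of the 6 fits that left out a library. The 7 tested ethylene response genes all had positive log2 fold changes, with a median of 0.8, and none passed in edgeR at either an adjusted or an unadjusted p of 0.05. DESeq2 called ETO1, which did not pass the count filter of the edgeR test.

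Among regulators, BHLH25 was the strongest call and is described with its interval. NAC079, a NAC transcription factor, had 8.58, 9.45 and 10.3 CPM in PimaS-7, against 19.7, 16 and 18.5 CPM in 5917 (-0.93 log2 units, adjusted p = 0.0066), and missed a call by its fold. GL3, which in Arabidopsis promotes trichomes, had 11.2, 9.28 and 12.6 CPM in PimaS-7, against 8.3, 6.56 and 5.72 CPM in 5917, at an adjusted p of 0.051. ZFP10, a zinc finger protein, was lower in PimaS-7 by -1.71 ± 0.39 log2 units (SE, adjusted p = 0.031), and CDF2, a Dof factor that delays flowering in Arabidopsis, by -1.27 ± 0.26 (SE, adjusted p = 0.022). The bZIP factor CPRF1 was higher by 1.01 ± 0.26 (SE, adjusted p = 0.045) but was not called by DESeq2. Without a library in turn, the call of ZFP10 held in 2 of 6 fits, that of CDF2 in 3 and that of CPRF1 in 1. Of 30 tested MYB, NAC, WRKY and bHLH genes, BHLH25 was the only call by edgeR, and DESeq2 also called a WRKY39 gene higher.

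Protein and redox genes showed the following. HSP83A, a cytosolic HSP90 chaperone, had 12.1, 13.6 and 7.45 CPM in PimaS-7, against 15.9, 28.7 and 24.5 CPM in 5917, with a log2 fold change of -1.06 ± 0.28 (SE, adjusted p = 0.046), the only call of 24 chaperone genes. That call held in 1 of 6 fits without a library. Among 7 proteasome genes, RPN5A and RPT2A (Gbar_D08G021650) passed the adjusted p with lower levels, at -0.64 (adjusted p = 0.013) and -0.38 (adjusted p = 0.048). RPN1A (Gbar_D08G019160) was called higher at 1.07 ± 0.23 (SE, adjusted p = 0.026), a call that held in 1 of 6 fits without a library, while its neighbor copy Gbar_D08G019170 had 0.57 (adjusted p = 0.15). Copies this close in name can share reads, and how such reads were assigned is not given in the sources used here. GPX4, a glutathione peroxidase, had -0.85 (adjusted p = 0.0059), and GSTT1, a glutathione transferase, 0.78 (adjusted p = 0.013). With GSTU17 at -0.58 (adjusted p = 0.041) these were the 3 genes of the 16 peroxidase and glutathione genes that passed the adjusted p, and none was called by edgeR or DESeq2. CYCU2-2, a U-type cyclin, was the only call of 23 cell cycle and histone genes, with 2.15, 1.46 and 1.32 CPM in PimaS-7, against 5.99, 5.44 and 10.1 CPM in 5917 (-2.12 ± 0.31 log2 units, SE, adjusted p = 0.0076).

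The interval on D03 held the densest calls of the 3 intervals. Its 29 genes held here lie between 3276372 and 3883968, 23 were tested and 6 were called (26.1%, beside 5.08% of all genes), 5 higher and 1 lower. In the interval on D08 34 of 826 tested genes were called (4.12%), and in that on D11 8 of 382 (2.09%). Over the 3 intervals 1703 genes were held here, fewer than the paper counts, so the shares may leave out genes of an interval. Neighboring genes can share a cause of expression and were not treated as replicates, so these shares are descriptions.

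GRDP2 (Gbar_D03G003400, 3671342 to 3675030) encodes a protein with a glycine-rich domain. It had 30.9, 28.5 and 27.7 CPM in PimaS-7, against 4.17, 4.59 and 4.08 CPM in 5917. Replicates differed little and the log2 fold change was 2.76 ± 0.12 (SE, adjusted p = 5.7e-05), with 2.71 to 2.8 when each library was left out. BHLH25 (Gbar_D03G003250, 3456920 to 3459133), a bHLH transcription factor, was nearly silent in PimaS-7 with 0.205, 0.143 and 0.162 CPM, against 1.96, 2.53 and 4.46 CPM in 5917. The 2 groups were an order of magnitude apart (-4.09 ± 0.45 log2 units, SE, adjusted p = 0.0023), at a low level in both. At5g64500 (Gbar_D03G003260), the next gene, matches a sphingolipid transporter of the spinster family and had 16, 20.4 and 12.3 CPM in PimaS-7, against 5.29, 6.03 and 2.34 CPM in 5917. It was higher in PimaS-7 by 1.83 ± 0.35 log2 units (SE, adjusted p = 0.017), and the call was lost without PimaS-7 replicate 1 (adjusted p = 0.062).

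Leucine-rich repeat receptor kinases of this interval were called higher as well. HSL2 (Gbar_D03G003200, 3340106 to 3343774), which in Arabidopsis perceives the IDA peptide during organ shedding, had 3.34, 2.77 and 3.9 CPM in PimaS-7, against 1.03, 1.16 and 0.803 CPM in 5917. The log2 fold change was 1.74 ± 0.27 (SE, adjusted p = 0.0095), and the call held without each library. It was lost with limma on log2(FPKM + 1) and in 1 fit of all 48 libraries. BAM1 (Gbar_D03G003230), related to the CLAVATA receptors of meristems, had 37.2, 22.2 and 33.6 CPM in PimaS-7, against 17.3, 15.8 and 10.6 CPM in 5917 (1.09 ± 0.24, SE, adjusted p = 0.029). A second gene with the BAM1 name beside it (Gbar_D03G003220) averaged 29 CPM in PimaS-7 and 29.2 CPM in 5917, so only the copy at 3399774 to 3403625 was called. PCKA (Gbar_D03G003300), phosphoenolpyruvate carboxykinase of gluconeogenesis, had 142, 139 and 85.4 CPM in PimaS-7, against 73.2, 53.1 and 45.9 CPM in 5917 (1.09 ± 0.24, SE, adjusted p = 0.028). The calls of BAM1 and PCKA each held in 2 of the 6 fits that left out a library. Of the 17 other tested genes of the interval, COX6A (-0.52), rmnd5a (-0.48) and IAA9 (0.46) passed the adjusted p below the fold limit.

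**Figure D3:**
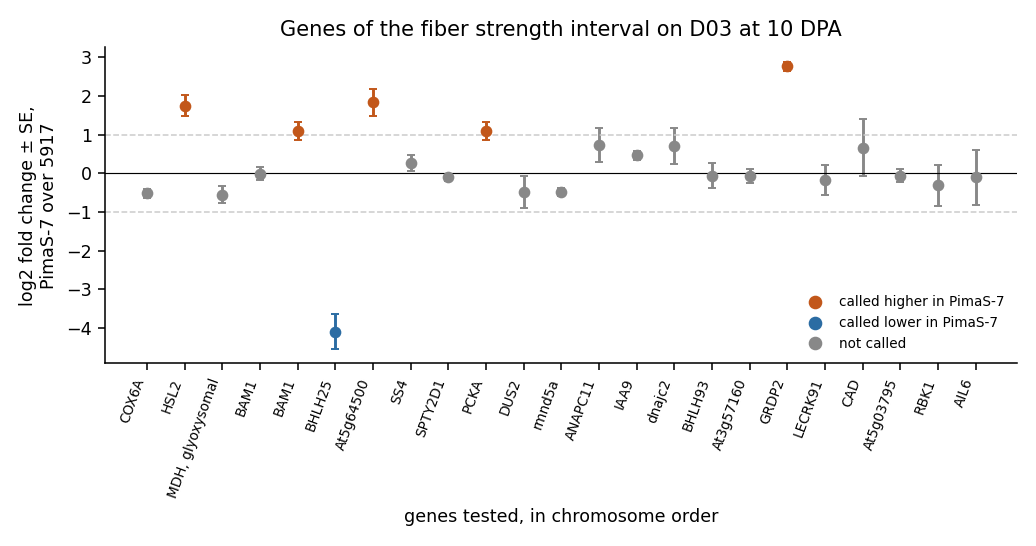
Each point is 1 of the 23 tested genes of the D03 interval in chromosome order, with its log2 fold change, PimaS-7 over 5917, on the y axis and the standard error as bar. Dashed lines mark the fold limit of a call, and the 6 calls are HSL2, BAM1, At5g64500, PCKA and GRDP2 above and BHLH25 below.

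Outside D03 the named calls with the largest increase were on D08. At2g45070, named for the beta subunit of Sec61, the channel through which proteins enter the endoplasmic reticulum, had 9.46, 12.2 and 9.63 CPM in PimaS-7, against 0.481, 0 and 0.193 CPM in 5917. The gene was almost absent from 5917 and had a log2 fold change of 5.52 ± 0.64 (SE, adjusted p = 0.003). SRF8, a receptor-like kinase of the STRUBBELIG family, had 5.55, 4.31 and 4.87 CPM in PimaS-7, against 0.898, 0.625 and 0.482 CPM in 5917 (2.87 ± 0.29, SE, adjusted p = 0.0016). ASK8, a kinase of the GSK3 family, had 5.57, 3.83 and 5.52 CPM in PimaS-7, against 0.513, 0.937 and 1.28 CPM in 5917 (2.44 ± 0.35, SE, adjusted p = 0.0071). At1g12280, on D11 and matching a disease resistance protein, had 7.41, 5 and 5.36 CPM in PimaS-7, against 2.02, 2.53 and 0.899 CPM in 5917 (1.7 ± 0.37, SE, adjusted p = 0.026). Its call was lost without PimaS-7 replicate 1 and without PimaS-7 replicate 3. At1g12280 and HSL2 were the 2 calls among 19 tested genes of the resistance and receptor kinase list. That list does not hold the called receptor kinases BAM1 and SRF8. At2g45070, SRF8 and ASK8 kept their calls without each library. B0495.7, matching a metallopeptidase of the endoplasmic reticulum, was higher by 2.88 ± 0.51 (SE, adjusted p = 0.014), and PIP5K10, a lipid kinase that makes phosphatidylinositol bisphosphate, by 2.09 ± 0.41 (SE, adjusted p = 0.02), both below 1 CPM in 5917. The call of B0495.7 was lost without PimaS-7 replicate 1, and that of PIP5K10 held in 1 of 6 fits without a library. PYRR, of riboflavin synthesis, had 2.48, 16.3 and 9.28 CPM in PimaS-7, against 2.08, 1.47 and 1.35 CPM in 5917. Its spread within PimaS-7 was wide, and the call (adjusted p = 0.038) held in only 1 of 6 fits without a library. Smaller higher calls with under 10 CPM in both cultivars were RABD2A, a GTPase of vesicle traffic to the Golgi, IPUT1, which adds glucuronic acid to sphingolipids, FUM2, a fumarate hydratase, and OXA1, a mitochondrial membrane insertase, at 1.74, 1.49, 1.19 and 1.03 log2 units. Their calls held in 1, 4, 2 and 0 of the 6 fits that left out a library, and DESeq2 did not call OXA1.

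Lower calls on D08 and D11 included proteins of RNA and of vesicles. Neighboring genes both named SMD1B, a core protein of the spliceosome, were lower in PimaS-7. Gbar_D08G020910 had 13.4, 13 and 11.8 CPM in PimaS-7, against 58.9, 46.3 and 54 CPM in 5917 (-2.06 ± 0.12 log2 units, SE, adjusted p = 0.00017). Gbar_D08G020920 had 10.8, 10.3 and 9.35 CPM in PimaS-7, against 22.5, 34.6 and 39.6 CPM in 5917 (-1.67 ± 0.21, SE, adjusted p = 0.0041). Their reads may be shared. At1g31730, the epsilon subunit of the AP-4 adaptor that sorts cargo at the Golgi, had 5.78, 5.94 and 5.71 CPM in PimaS-7, against 12.1, 13.3 and 14.5 CPM in 5917 (-1.2 ± 0.13, SE, adjusted p = 0.002). ILA, a HEAT-repeat protein related to the translation regulator GCN1, had 4.53, 6.17 and 5.64 CPM in PimaS-7, against 14.1, 15.4 and 15.2 CPM in 5917 (-1.45 ± 0.15, SE, adjusted p = 0.0018). All 4 calls held without each library. With limma on log2(FPKM + 1) the calls of At1g31730 and ILA were lost. That of At1g31730 was also lost with total counts, and that of Gbar_D08G020920 in 1 fit of all 48 libraries. SCPL40, a carboxypeptidase-like protein, and LCKB2, a kinase of sphingolipid bases, were lower by -1.91 ± 0.2 (SE, adjusted p = 0.002) and -1.37 ± 0.27 (SE, adjusted p = 0.02). The call of LCKB2 held in 3 of 6 fits without a library.

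F6'H1 (Gbar_D08G024860), the hydroxylase that leads to scopoletin and related coumarins, had 0 counts in every PimaS-7 library and 4.17, 5.09 and 3.76 CPM in 5917. Set against 3 counts in the 3 libraries together, it was at least 184-fold lower in PimaS-7 (adjusted p = 0.00074). It had 0 counts in PimaS-7 at all 8 stages, while 5917 averaged 14.3 CPM in ovules, 8.11 CPM at 5 DPA and 4.31 CPM at 10 DPA, and at most 0.12 CPM from 15 DPA on.

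Of the calls, 149 higher genes had 0 counts in the 5917 libraries and 138 lower genes 0 counts in the PimaS-7 libraries. Of these calls, 27 of the higher genes averaged at least 5 CPM in PimaS-7 and 26 of the lower genes at least 5 CPM in 5917, and 17 and 15 of them are new genes assembled from the reads, which the authors added to the annotation. Gbar_D09G014390 had 29.6, 36.3 and 31.6 CPM in PimaS-7, against 0 counts in 5917, and was at least 1020-fold higher in PimaS-7. Gbar_D13G004190 had 0 counts in PimaS-7, against 44.4, 44 and 53.6 CPM in 5917, and was at least 2000-fold lower in PimaS-7. Over all 48 libraries, 7 of the 27 higher genes had no count in any 5917 library and 2 of the 26 lower genes none in any PimaS-7 library. Traces were common in the others, as Gbar_D13G004190 had up to 0.223 CPM in 4 of 24 PimaS-7 libraries, and Gbar_D09G014390 up to 0.583 CPM in 13 of 24 libraries of 5917. At other stages 4 of the 27 and 2 of the 26 exceeded 1 CPM in a library of the cultivar that had 0 counts at 10 DPA. Among them Gbar_A07G002270, at 0 counts in 5917 at 10 DPA, had counts in 19 of 24 libraries of 5917 with up to 26.8 CPM, and Gbar_D04G019030, at 0 counts in PimaS-7 at 10 DPA, had up to 5.94 CPM in a PimaS-7 library. Both cultivars thus gave reads of these genes. Whether a gene without a count in any library of a cultivar is absent from it, silent, or diverged from the reference so that reads do not align cannot be told apart with these counts.

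New genes of the assembly made up a good part of the calls. Of 4397 new genes tested, 372 were higher and 145 lower (11.8%), against 4.31% of A subgenome genes and 4.44% of D subgenome genes called. New genes had a lower median level, 1.65 CPM beside 6.5 CPM of annotated genes, and were built by the authors from the reads of these cultivars. Chromosomes ranged from 2.62% called on A02 to 5.95% on D05. Of the calls of new genes, 31.5% were repeated in the same direction at 5 or more other stages, against 13.7% of the calls of annotated genes.

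Within each direction, the called genes with the highest CPM, which is not scaled by gene length, carry no name here. Gbar_A10G016120 had 3310, 3770 and 3640 CPM in PimaS-7, against 106, 130 and 114 CPM in 5917 (4.94 ± 0.15 log2 units, SE, adjusted p = 2.8e-05). Gbar_D02G021860 had 345, 364 and 214 CPM in PimaS-7, against 2900, 4800 and 5050 CPM in 5917 (-3.79 ± 0.3, SE, adjusted p = 0.00057). The first was called higher at 5 of the 7 other stages, 0 and 35 DPA excepted, and the second lower at all 7. Gbar_A01G022010 had 1500, 1850 and 1630 CPM in PimaS-7, against 3000, 3680 and 3550 CPM in 5917, and was called elsewhere only at 35 DPA. Gbar_D04G017350 had 359, 413 and 489 CPM in PimaS-7, against 110, 117 and 198 CPM in 5917, and was called in the opposite direction at 35 DPA.

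The other stages show how far the 10 DPA calls recurred at other ages. A gene without a call at another stage may still differ there below the thresholds. Of genes called higher at 10 DPA and tested elsewhere, 19.6% were called higher in ovules of 0 DPA, where 1.24% of all tested genes were. In elongating fibers the share was 29.5% (all genes 1.87%) for day 5 and 40.7% (all genes 8.21%) for day 15. Later shares were 36.6% (6.33%) for day 20, 17.7% (2.89%) for day 25, 24.6% (5.35%) for day 30 and 27.8% (8.32%) for day 35, with that of all genes in parentheses. Of genes called lower at 10 DPA, 32.1% were called lower in ovules (all genes 1.26%), 55.1% in fibers of day 5 (3.02%), 45.9% on day 15 (4.4%), 47.4% on day 20 (2.58%), 30.7% on day 25 (4.02%), 37.2% on day 30 (2.47%) and 50.2% on day 35 (9.89%). Calls in the opposite direction were few, with at most 28 of the higher genes (35 DPA) and 42 of the lower genes (25 DPA). Of the 2432 calls, 790 had no call in the same direction at any other stage, 65 of which were called in the opposite direction elsewhere, and 228 were called in the same direction at all 7 others, 110 of them higher and 118 lower. Among those 228, 111 are new genes, and SMD1B (Gbar_D08G020910) is the only named gene, with log2 fold changes of -1.69 at 5 DPA to -4.22 at 35 DPA.

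**Figure D4:**
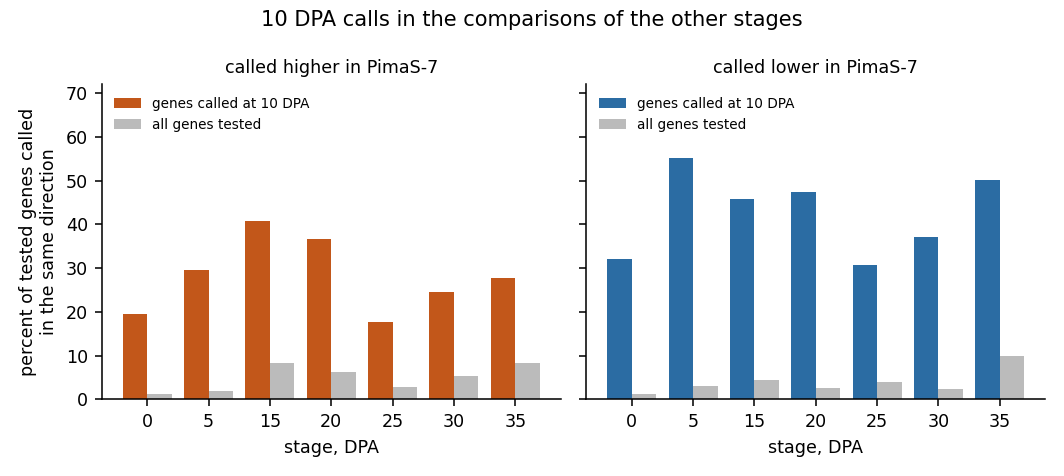
Colored bars give the percent of genes called higher (left) or lower (right) in PimaS-7 at 10 DPA that were called in the same direction at the stage on the x axis, in DPA, and gray bars the percent of all genes tested at that stage called in that direction. Colored bars reach 40.7% at 15 DPA on the left and 55.1% at 5 DPA on the right, and gray bars stay at or below 8.32% and 9.89%.

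GRDP2 was called higher at 6 other stages, 25 DPA excepted. From 0 to 35 DPA its stage means were 12.8, 13.3, 28.5, 45.3, 45.8, 26.9, 21.7 and 18.6 CPM in PimaS-7, against 5.14, 4.7, 4.25, 4.38, 4.05, 4.8, 2.28 and 1.38 CPM in 5917. The PimaS-7 mean was highest at 15 and 20 DPA (45.3 and 45.8 CPM), while that of 5917 never exceeded 5.14 CPM. As a ratio the means were furthest apart at 35 DPA. BAM1 (Gbar_D03G003230) was not called at 5 DPA, at 58.3 CPM in PimaS-7 and 42.2 CPM in 5917, and at 15 DPA stood at 21.1 CPM in PimaS-7 and 2.29 CPM in 5917. Its cultivar difference at 10 DPA was smaller than at 15 DPA by -2.16 log2 units (edgeR interaction, adjusted p = 0.004). HSL2 was called higher at 15, 20, 30 and 35 DPA and at none of 0, 5 and 25 DPA. Its difference at 10 DPA minus that at 15 DPA was -1.67 log2 units and did not pass (adjusted p = 0.13). At 25 DPA it averaged 2.95 CPM in PimaS-7 and 16.5 CPM in 5917.

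CSI1 averaged 43.3 CPM in PimaS-7 and 161 CPM in 5917 at 5 DPA, 175 CPM in PimaS-7 and 454 CPM in 5917 at 10 DPA, and 315 CPM in PimaS-7 and 475 CPM in 5917 at 15 DPA. The mean of 5917 at 15 DPA was close to its mean at 10 DPA while that of PimaS-7 was well above, and the gap at 10 DPA exceeded that at 15 DPA by -0.81 log2 units (adjusted p = 0.0057). Only the comparison at 5 DPA called CSI1 as well (-1.86 log2 units). EXLB1 was lower in PimaS-7 at 5, 15, 20, 25, 30 and 35 DPA by its fitted values and was called at 4 of these stages.

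A test of the difference itself asked whether the 10 DPA gap departs from the mean gap of the other 7 stages, and 297 of 57994 genes passed (0.512%). Among the 2432 calls 105 passed, 51 lower and 54 higher, and in 46 and 52 of these the gap at 10 DPA was the larger. The calls were chosen for their gap in the same 10 DPA libraries. A larger gap at 10 DPA is therefore favored by the choice and does not show that differences peak there. The count of 105 fell to 21 without PimaS-7 replicate 1 and to 40 without PimaS-7 replicate 3. It was 56, 45 and 19 without 5917 replicates 1, 2 and 3, so it rests on every one of these libraries. RABD2A was the only named call among the 105, and its call at 10 DPA itself held in only 1 of 6 fits without a library (adjusted p up to 0.14). Against 5 DPA, 14 lower and 13 higher calls changed their gap by at least 1 log2 unit (0.0849% of all genes), and against 15 DPA 249 lower and 195 higher calls did (6.89% of all genes). The difference between these 2 counts was not tested.

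Genes that change between 5 and 15 DPA were examined because they give a scale of age. The 6203 genes called higher at 15 than at 5 DPA in both cultivars, and the 8861 called lower in both, were chosen without any library of 10 DPA. At 10 DPA, of the rising genes 60 of 5976 tested were higher in PimaS-7 (1%) and 336 lower (5.62%), with a median log2 fold change of -0.36. Of the falling genes 489 of 8345 were higher (5.86%) and 27 lower (0.324%), with a median of 0.57. Genes in neither set had 2.77% higher and 1.76% lower calls and a median of 0.04. CSI1, CESA3, TUBB5, ACT7, EXLB1, AUX22D and BHLH25 are rising genes, and BAM1 and PCKA are falling genes. Of the 18 named lower calls 9 were rising genes and 1 a falling gene, and of the 24 named higher calls 9 were falling genes and 1 a rising gene. Over all calls, 336 of the 954 lower were rising and 27 falling, and 489 of the 1478 higher were falling and 60 rising.

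The position of each 10 DPA library between the 5 DPA mean (0%) and the 15 DPA mean (100%) was taken as the median over these genes. With the means of both cultivars as ends, the rising genes stood at 40.5%, 49.1% and 43.9% in PimaS-7, against 58.1%, 65.9% and 72.8% in 5917, and the falling genes at 40.2%, 54.7% and 44.8% in PimaS-7, against 60.8%, 71.3% and 88.4% in 5917. All PimaS-7 libraries were nearer to 5 DPA than any library of 5917. With each cultivar's own 5 and 15 DPA means as ends, chosen after the data were seen, the rising genes stood at 52.3%, 60.3% and 55.5% in PimaS-7, against 47.7%, 54.9% and 62.8% in 5917, and the falling genes at 50.5%, 65.5% and 55.1% in PimaS-7, against 50.7%, 60.8% and 78% in 5917. On that scale the cultivars overlapped, with means of 56% in PimaS-7 and 55.1% in 5917 for rising genes and 57% in PimaS-7 and 63.2% in 5917 for falling genes. No p is given, since 3 against 3 libraries allow an exact two-sided permutation p of 0.1 at the smallest. Whether the cultivars differed in age at all was not tested, and the result depends on the choice of ends. Differences in developmental pace, in harvest or flowering age, and in the levels of these genes at 5 and 15 DPA cannot be told apart.

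**Figure D5:**
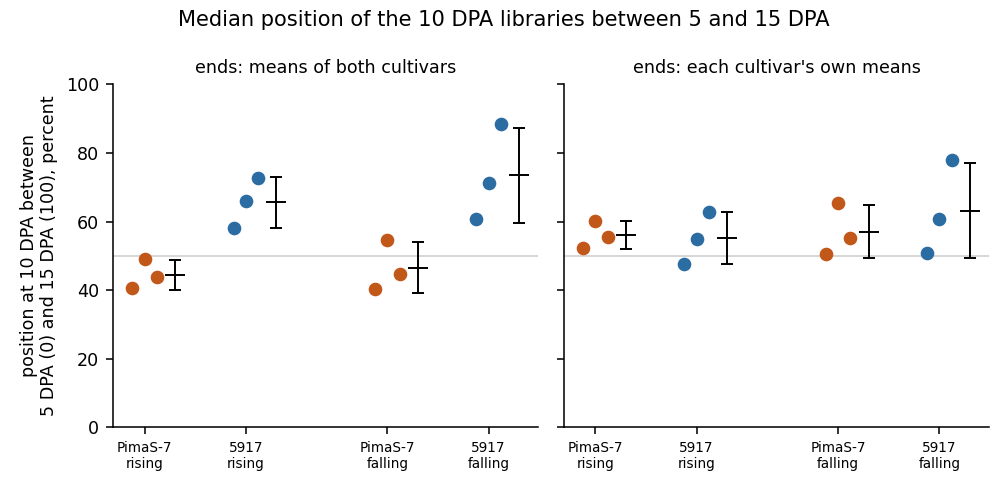
Points are the 6 libraries of 10 DPA, the y axis is the median position between 5 DPA (0%) and 15 DPA (100%), with rising and falling genes side by side, PimaS-7 left of 5917 in each, and mean with SD beside the points. On the left, with ends from both cultivars, PimaS-7 averages 44.5% and 5917 65.6% for rising genes, and on the right, with each cultivar's own ends, the averages are 56% in PimaS-7 and 55.1% in 5917 for rising genes and 57% in PimaS-7 and 63.2% in 5917 for falling genes.

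Lists of genes that the study grouped by co-expression over these same samples were checked for their 10 DPA calls. Of 455 tested genes of the green module, 24 were called lower and 0 higher by edgeR (5.27%), and 26 lower and 0 higher by DESeq2. Of all tested genes, edgeR called 5.08%, and 1.99% were called lower, so the share of calls in the green module was near that of all genes. At an unadjusted p of at most 0.05 in edgeR, 305 green genes were lower and 2 higher, where 31.2% of all genes passed in either direction. The median of the green module was -0.41 log2 units, beside 0.07 over all genes. The brown, black and red modules had 3.19%, 1.64% and 3.97% of their tested genes called, all below the share of all genes. Since the modules were built on these libraries, they are not independent evidence of a direction.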

How the data were processed

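RNA of PimaS-7 and 5917 fibers was sequenced in 3 libraries per cultivar and stage. The authors used HISAT2 for alignment to build HAU v2.0 of Pima 3-79 and StringTie for assembly and quantification. Whole counts and FPKM were deposited for 69337 genes in every library. FPKM served for expressed genes, correlations, markers and 1 alternative.

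Counts were tested with edgeR 4.0.16 (quasi-likelihood, TMM, filterByExpr at 10 counts; R 4.3.3) on the 6 libraries of 10 DPA, and likewise on 6 libraries for each other stage. Differences between stages were interaction terms, on 12 libraries for 5 or 15 DPA and on 48 for the mean of the other 7 stages, with Benjamini-Hochberg adjustment over all tested genes. Calls were tested on simulated counts with 100 genes changed by 1.5 log2 units and 100 by 3. There edgeR recovered 56 and 88 of them with 18 false calls, and DESeq2 recovered 72 and 93 with 91 false calls. The simulation changed far fewer genes than were called in the data and drew the noise of each gene independently. Its rates of recovery and of false calls therefore need not hold for the comparison itself. CPM is TMM-scaled. Alternatives were DESeq2 1.42.0, its size factors in edgeR, no filter, a replicate block, limma 3.58.1 with trend on log2(FPKM + 1) where at least 3 libraries exceeded 0.5 FPKM, 1 fit of 48 libraries, total-count scaling, and each library left out. Genes at 0 in 1 cultivar were given as bounds with a floor of 3 counts. The SE is the size of the log2 fold change divided by the square root of F in the quasi-likelihood test, so it includes spread between replicates. Floors cover counting error only.

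Named genes were the study's 5 candidates, members of 22 lists, named calls with the largest change (15 per direction, non-overlapping, at least 1 CPM) and other named calls, the largest unnamed calls, genes at 0 in 1 cultivar, and the highest calls by CPM. Members, lists and tests were chosen with earlier results of these data known. No sequence is shown, and fold changes and p-values of the study were not used.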

Additional observations from a re-analysis of the deposited data

Results flagged for a closer look

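For 14 named genes the cultivar difference at 10 DPA departed from that at another age by an interaction test in edgeR (adjusted p over all genes tested). Examined were the 42 named calls, chosen for their gap at 10 DPA, and the 5 candidates of the study. Each was set against 5 DPA, 15 DPA and the mean of the other 7 stages. Against 15 DPA, 6.89% of all genes passed with a change of at least 1 log2 unit, a limit not applied here. Values are log2 differences, PimaS-7 over 5917, at 10 DPA minus those at 15 DPA.

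Among genes called higher at 10 DPA, the receptor kinases SRF8 and BAM1 differed by -4.81 (adjusted p = 0.05) and -2.16 (adjusted p = 0.004), the sphingolipid transporter At5g64500 by -1.35 (adjusted p = 0.046) and GRDP2 by -0.65 (adjusted p = 0.03). SRF8 was nearly off by 15 DPA, at 0.766 CPM in PimaS-7 and 0 CPM in 5917, so its fitted gap there depends on the prior count. These 4 had the smaller gap at 10 DPA. RABD2A was the exception in direction, since its log2 difference was 1.74 at 10 DPA and -1.06 (not called) at 15 DPA, with 2.79 (adjusted p = 0.013) against 15 DPA and 1.92 (adjusted p = 0.047) against the mean of the other 7 stages.

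Of genes called lower at 10 DPA, CDF2 differed by -4.05 (adjusted p = 0.0012), ZFP10 by -3.14 (adjusted p = 0.00083), BHLH25 by -2.47 (adjusted p = 0.03) and SCPL40 by -2.12 (adjusted p = 0.00018). Values for ILA and DSP were -1.26 each (adjusted p = 0.006 and 0.028), for CSI1 -0.81 (adjusted p = 0.0057) and for At1g31730 -0.76 (adjusted p = 0.017). CDF2 and ZFP10 were called higher in PimaS-7 at 15 DPA, so their difference turned in sign, with 1.86 CPM in PimaS-7 and 0.274 CPM in 5917 for CDF2, and 14.1 CPM in PimaS-7 and 5.43 CPM in 5917 for ZFP10. The 10 DPA calls of CDF2, ZFP10 and RABD2A held in only 3, 2 and 1 of 6 fits without a library. SP1L2, which was not called at 10 DPA, differed by 2.31 (adjusted p = 0.0011), since at 15 DPA it averaged 71.5 CPM in PimaS-7 and 301 CPM in 5917.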

How the results depend on the processing

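Against 1478 higher calls, total-count scaling gave 2600, the replicate block 766 and limma on log2(FPKM + 1) 803, and leaving out a library gave 503 to 2114. Against 954 lower calls, limma gave 412 and leaving out a library 671 to 1116. DESeq2 gave 2176 higher and 1282 lower calls. For the 105 calls whose gap departs from the other stages, the replicate block by stage gave 60 and leaving out a library 19 to 79. The methods state no pairing by replicate number, so the block is an alternative only. Deviations of libraries with the same number correlated at 0.11, -0.09 and -0.12, beside -0.18 to 0.26 for libraries with different numbers. With 3 libraries a side, these values cannot decide whether there was a pairing or a shared batch. The position of rising genes, PimaS-7 minus 5917, was -21.1 percentage points, -13.9 on log2(FPKM + 1), 0.893 with each cultivar's own ends, and -24.9 to -17.5 without a library. For falling genes it was -26.9, -6.16 with own ends and -33.3 to -19.5 without a library. SP1L2 ranged from -0.04 to 0.46 without a library, and turned to -0.04 (adjusted p = 0.91) without PimaS-7 replicate 3. Of 1233 values of 95 named genes, 1041 kept direction and side of the threshold, 182 lost and 9 gained it, and 1 turned. All 42 named calls kept their direction wherever fitted, and 17 kept the call without each of the 6 libraries. By setting, 40 of 42 stayed called in DESeq2, 36 with total counts, 26 with the replicate block, 26 in 1 fit of 48 libraries, and 17 of 40 fitted in limma. The cause of these losses was not tested.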

Other observations

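A stretch of D05 was noticed after the values were seen and therefore gets no test. From Gbar_D05G036050 to Gbar_D05G036780, 30 genes were tested, and 5 were higher and 16 lower in PimaS-7 (70%), beside 5.19% of the rest of D05. Of these 21 genes, 5 were called in the same direction at 5 or more other stages. Shorter runs of neighboring calls were also found, such as 4 genes on A10 from Gbar_A10G013510 to Gbar_A10G013570, all higher in PimaS-7.

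A polygalacturonase gene (Gbar_D08G012870), of a family that cuts pectin, had 0.778, 194 and 66.8 CPM in PimaS-7, against 0.898, 1080 and 1110 CPM in 5917. Both libraries numbered 1 were below 1 CPM, and the difference did not pass the test (adjusted p = 0.33). Of all genes only Gbar_A12G000770 had the same pattern of at least 10-fold less in both libraries numbered 1, with 0.66, 9.45 and 8.61 CPM in PimaS-7, against 0.58, 8.72 and 8.71 CPM in 5917.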
